A study of Mus musculus with 8 samples.

Results

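Fibroblast growth factor (FGF) receptors and ligands were examined in RNA-seq libraries of a mouse kidney line, as a set of 10 genes found by their symbols among the 22274 genes of the deposited table. The set holds the receptor genes Fgfr1, Fgfr2, Fgfr3, Fgfr4 and Fgfrl1 and the ligand genes Fgf1, Fgf2, Fgf7, Fgf9 and Fgf18. All 8 libraries came from the line labelled RFB, given as kidney fibroblasts, and TGF-β, a cytokine known to raise matrix production, was given to all cells. The ad-GFP group (4 libraries) had received an adenovirus labelled GFP, and the ad-CRE group (4 libraries) an adenovirus labelled Cre, the recombinase that cuts out DNA flanked by loxP. Suv39h1, a histone H3 methyltransferase gene, is the target named in the title and design text of the series, and no label gives the loxP allele meant for Cre. The data are from a single line, and separate cultures are not stated for the replicates, so p-values measure library-to-library spread only, and that spread may be technical.

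FGF ligands are secreted proteins that bind receptor tyrosine kinases on the cell surface together with heparan sulfate, a sugar chain carried by syndecans and glypicans. Ligand binding pairs the receptors and starts the RAS and MAP kinase cascade through the adaptor FRS2, and the Sprouty and DUSP genes that the cascade induces restrain it. In the kidney, mesenchymal cells make Fgf7 and Fgf10, which act on the epithelial splice form of Fgfr2, and FGF signals guide branching of the ureteric bud during development.

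Totals were 15998257 to 22297598 counts per library. Suv39h1 had 37.2, 43.6, 44.1 and 41.3 CPM (counts scaled to a common library size) in ad-GFP and 32.3, 32.9, 33.4 and 31.6 CPM in ad-CRE, a modest fall with no overlap between groups (log2 fold change -0.35, edgeR adjusted p = 8.65e-07). Smarca4, which encodes the chromatin remodelling ATPase BRG1, averaged 288 ± 11.1 CPM with ad-GFP but 34.3 ± 3.20 CPM with ad-CRE (SD, n = 4), a far larger fall (log2 fold change -3.07, edgeR adjusted p = 3.82e-31). At a Benjamini-Hochberg adjusted p of 0.05 in edgeR's quasi-likelihood test, 73.1% of all genes tested passed, 36.8% upwards and 36.3% downwards in ad-CRE, and every count of a list is to be read against these shares. Of 19 tubular epithelial markers tested (21 listed), 13 rose and 4 fell, with a summed level of 2960 to 3219 CPM in ad-GFP and 5751 to 5943 CPM in ad-CRE. Of 14 fibroblast markers tested (16 listed), 2 rose and 12 fell, with a summed level of 4088 to 4238 CPM in ad-GFP and 2520 to 2674 CPM in ad-CRE. Abundant genes carried much of both sums. Krt8 averaged 745 CPM in ad-GFP and 1980 in ad-CRE, Krt18 459 and 957, and Cldn4 344 and 945. Among the fibroblast markers, Vim averaged 1610 and 693 CPM, and Acta2 1640 and 1130. Vim had a log2 fold change of -1.22, Col1a1 -1.51, Acta2 -0.54 and Ddr2 -3.07, while Fbln2 rose by 0.15. Pdgfra, the other fibroblast marker that rose, had 0.36 and was named after its value was seen. Umod, a tubular marker that rose, had 11 reads in ad-GFP against 123 in ad-CRE. Dcn, a fibroblast marker that fell, had 286 against 28. Both passed the filter on low counts through a single group, which favours their directions, and the other markers were not checked for this. All 12 endothelial markers fell (summed level 227.1 to 244.8 CPM in ad-GFP and 98.5 to 107.6 CPM in ad-CRE), and 7 of 8 leukocyte markers tested fell (10 listed, 242.8 to 276 CPM and 173 to 180.3 CPM). Among these, Emcn had -1.36, Eng -1.15, Flt1 -1.56 and Cdh5 -1.06, and Cd68 -1.14, Lyz2 -0.56, Adgre1 -0.74 and Csf1r -0.52. Reads of the collecting duct gene Aqp2 and the T cell gene Cd3e were at 0 in every library. Thus markers of epithelium stood beside those of fibroblasts in a line labelled as fibroblasts, and their part in the results below was not tested. In bulk RNA, fewer cells of a type and less RNA per cell cannot be told apart.

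The regions just before the start sites of Fgf7 and Fgf18 are shown because these ligands changed in opposite directions and because the RefSeq start sites of both coincide with the gene starts of GENCODE M21. Each line gives the 250 bases before the start site, read 5′ to 3′ on the strand of the gene, with CpG dinucleotides in capitals (sequence from RefSeq, GRCm38.p6). The first lies at chr2:126034408-126034657 on the plus strand and the second at chr11:33147401-33147650 on the minus strand.
Fgf7: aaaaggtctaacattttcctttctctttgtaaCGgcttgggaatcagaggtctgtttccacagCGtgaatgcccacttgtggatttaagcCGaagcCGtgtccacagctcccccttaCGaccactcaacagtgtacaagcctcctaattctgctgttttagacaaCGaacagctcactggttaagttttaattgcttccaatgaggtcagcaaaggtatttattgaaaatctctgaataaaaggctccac
Fgf18: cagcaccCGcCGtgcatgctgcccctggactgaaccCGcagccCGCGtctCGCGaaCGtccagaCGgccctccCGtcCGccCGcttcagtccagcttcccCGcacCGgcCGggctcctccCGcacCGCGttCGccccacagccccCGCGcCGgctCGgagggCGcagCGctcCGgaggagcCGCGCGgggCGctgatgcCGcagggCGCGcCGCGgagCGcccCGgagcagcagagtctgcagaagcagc

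The Fgf7 window holds 6 CpG dinucleotides and 43.6% G and C, and the Fgf18 window 37 CpG dinucleotides and 77.2%. The median of all 32851 such windows in the RefSeq table is 6 CpG dinucleotides and 52.4% G and C, so that 97.8% of windows held fewer CpG dinucleotides than that of Fgf18. The GC box letters GGGCGG were found 1 time in the Fgf18 window and not in the Fgf7 window, searching both strands, and 32.7% of all windows held them. The TATA box letters TATAAA (12.4% of all windows) and the AP-1 letters TGANTCA (6.75%) were in neither. Windows were examined for 8 of the 10 genes, without Fgfr1 and Fgf1, the receptor and ligand with the highest levels. Among these 8, genes that rose did not all have windows rich in CpG dinucleotides, nor those that fell poor ones. The window of Fgfr2, which rose, had 2 CpG dinucleotides, 44% G and C and no GC box, and those of Fgfr3, which fell, had 19 and 24 CpG dinucleotides with 3 and 2 GC boxes. The window of Fgfrl1 had 30 CpG dinucleotides and 4 GC boxes, that of Fgfr4 had 15 and 2, that of Fgf2 had 20 and 1, and that of Fgf9 had 11 and none. No value here bears on what the windows do in these cells.

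**Figure D1:**
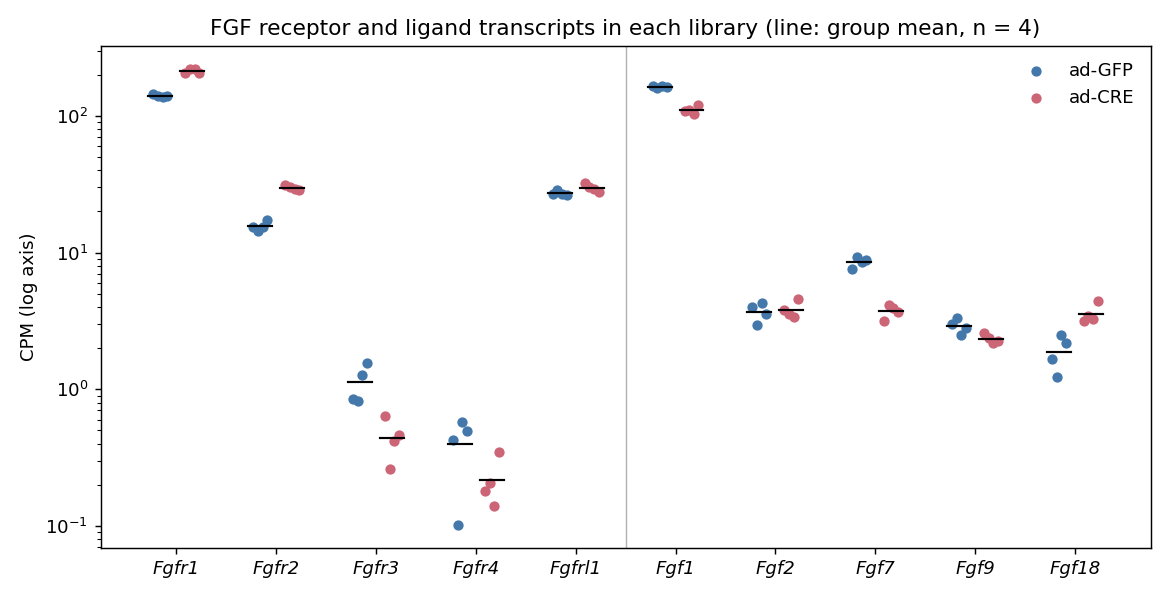
CPM of the 5 receptor genes and 5 ligand genes in each library, on a log axis, with ad-GFP in blue and ad-CRE in red (points: libraries, lines: means of 4). Fgfr1, Fgfr2 and Fgf18 lie higher in every ad-CRE library, and Fgf1, Fgf7 and Fgfr3 lower, while Fgfr4, Fgfrl1, Fgf2 and Fgf9 overlap.

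In ad-CRE the main kinase receptors rose while the main ligand and the epithelial-acting ligand Fgf7 fell. Fgfr1 rose 1.52-fold and Fgfr2 1.91-fold, whereas Fgf1 was 1.48-fold lower and Fgf7 2.30-fold lower. Fgf18 rose 1.90-fold from a low level. Of the 10 genes, 9 passed the filter on low counts and were tested, and 4 rose, 3 fell and 2 did not pass. Their median log2 fold change was 0.04. Across all genes tested 73.1% passed, 36.8% upwards and 36.3% downwards, with a median of 0.00, so the number of genes of this set that passed is near the background. The groups did not overlap for 6 of the 9, where the background is 66.2%.

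**Figure D2:**
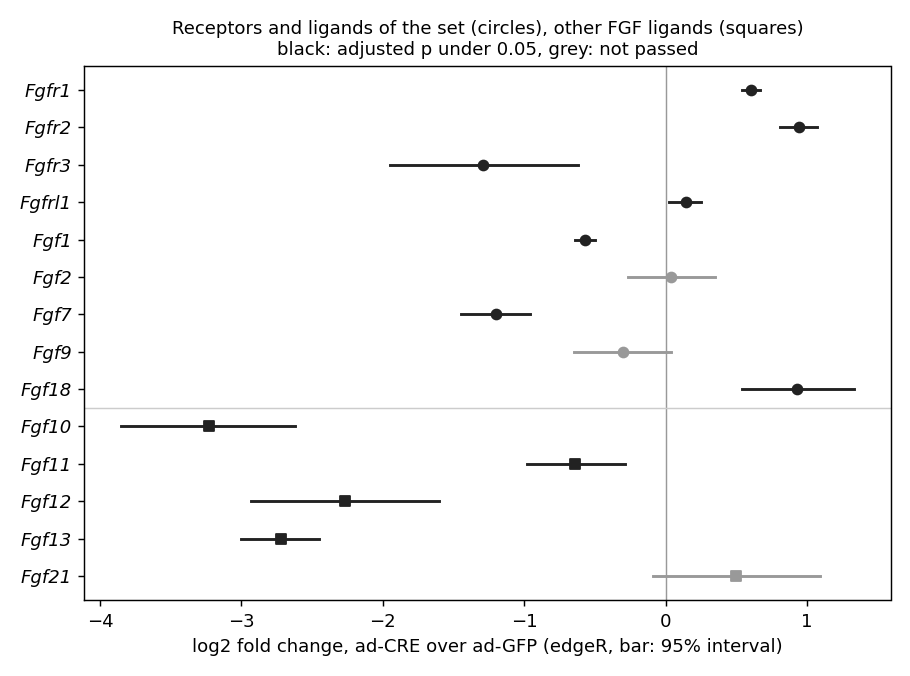
Log2 fold change of ad-CRE over ad-GFP from edgeR, with 95% intervals, black where the adjusted p is under 0.05. Circles are the 9 tested genes of the set and squares 5 other FGF family genes. Fgf10 lies farthest to the left at -3.23 and Fgfr2 farthest to the right at 0.94.

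Fgfr1, the receptor with the highest level here (ENSMUSG00000031565, GRCm38 chromosome 8, 25513654 to 25575718, plus strand), had 144, 139, 138 and 140 CPM in the ad-GFP libraries, given here and below in the order of their replicate numbers, and 206, 219, 221 and 207 CPM in the ad-CRE libraries. Each ad-CRE library lay above each ad-GFP library, and libraries of a group lay close together. The log2 fold change was 0.60 (SE 0.031, edgeR adjusted p = 3.48e-17), and the values rest on 10419 and 17119 reads. Fgfr1 is the receptor typical of mesenchymal cells, and its rise stands beside the fall of most fibroblast markers given above.

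Fgfr2, whose splice forms divide epithelial from mesenchymal ligand binding (ENSMUSG00000030849, chromosome 7, 130162451 to 133123350, minus strand), had 15.5, 14.4, 15.3 and 17.3 CPM in ad-GFP and 31.4, 30.2, 29.1 and 28.7 CPM in ad-CRE. The groups were far apart, with the highest ad-GFP library well below the lowest ad-CRE library. Its log2 fold change was 0.94 (SE 0.062, edgeR adjusted p = 1.96e-14). Gene counts do not show which splice form was read. The span given is that of GENCODE M21, and the RefSeq window before the start site lies inside it, at 130266809 to 130267058. GENCODE M21 gives Fgfr2 27 transcripts, and 314 of its exonic bases are shared with Ctbp2 on the same strand (5708 reads of Ctbp2 in ad-GFP, 6211 in ad-CRE). The sources used here do not state how reads in shared exons were assigned.

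Genes for proteins that set the splice form of Fgfr2 formed a list of 9, of which 2 rose, 6 fell and 1 did not pass (median log2 fold change -0.18, where 73.1% of all genes tested passed). The 2 that rose are the epithelial splicing regulators. Esrp2 had 22.2, 19.1, 18.9 and 21.6 CPM in ad-GFP and 40.8, 43.2, 40.9 and 42.3 CPM in ad-CRE, with no overlap (log2 fold change 1.03, SE 0.056, edgeR adjusted p = 1.96e-16). Esrp1 rose by 0.34 on the log2 scale, with 92.0 ± 6.90 CPM in ad-GFP against 116 ± 3.37 in ad-CRE (SD, n = 4). Among the factors not confined to epithelium, Hnrnpm fell by 0.34, Tra2b by 0.31, Ptbp1 by 0.18 and Srsf1 by 0.16 on the log2 scale, and Hnrnpa1 had -0.02 and did not pass (edgeR adjusted p = 0.504). Epithelial markers did not all move with Esrp1 and Esrp2: Cdh1 (log2 fold change 1.25), Krt8 (1.41), Krt18 (1.06) and Cldn4 (1.46) rose, while the tubular injury marker Havcr1 (-2.02), Slc12a1 (-2.13), Cdh16 (-0.66) and Lrp2 (-0.55) fell. The last 3 were named after their values were seen.

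Fgfr3 and Fgfr4 were near the limit of detection. Fgfr3 (ENSMUSG00000054252, chromosome 5, 33721674 to 33737068, plus strand) had 18, 16, 22 and 25 reads in ad-GFP and 14, 5, 9 and 8 reads in ad-CRE. In CPM these are 0.852, 0.816, 1.27 and 1.55 against 0.633, 0.260, 0.416 and 0.461, with the ad-CRE libraries all lower. Its log2 fold change was -1.29 (SE 0.33, edgeR adjusted p = 0.000833), but it passed the filter on low counts through the ad-GFP group only, which favours a fall. On the log2(FPKM + 1) scale, where FPKM is the deposited value scaled for gene length and library size, it had -0.28 and did not pass (limma adjusted p = 0.0778). Fgfr3 shares 998 exonic bases with G630022F23Rik on the opposite strand, a gene not in the deposited table. Fgfr4 (ENSMUSG00000005320, chromosome 13, 55152640 to 55168759, plus strand) had 9, 2, 10 and 8 reads in ad-GFP and 4, 4, 3 and 6 reads in ad-CRE. The groups overlapped and Fgfr4 was under the filter. With every gene of at least 1 read tested, it had a log2 fold change of -0.85 (edgeR adjusted p = 0.176), so a difference was not detectable at this depth.

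Fgfrl1, a receptor without a kinase domain that binds FGF ligands (ENSMUSG00000008090, chromosome 5, 108692382 to 108706924, plus strand), had 26.8, 28.9, 26.8 and 26.3 CPM in ad-GFP and 32.4, 30.2, 29.3 and 27.6 CPM in ad-CRE. The groups overlapped, since ad-GFP replicate 2 lay above ad-CRE replicate 4. It passed narrowly, with a log2 fold change of 0.14 (95% interval 0.02 to 0.25, edgeR adjusted p = 0.0300), and this call did not hold in 10 of 16 alternative settings. Among these were DESeq2 (0.13, adjusted p = 0.0694), total counts as the only scaling (0.11, adjusted p = 0.0824 in edgeR), a filter of 5 CPM in 4 libraries (0.11, edgeR adjusted p = 0.0730) and both FPKM scales (0.09 on each, limma adjusted p = 0.262 and 0.266). The edgeR call was also lost without ad-GFP replicate 1 (adjusted p = 0.0591), ad-GFP replicate 3 (0.0563), ad-GFP replicate 4 (0.0753), ad-CRE replicate 1 (0.158) or ad-CRE replicate 2 (0.0544).

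**Figure D3:**
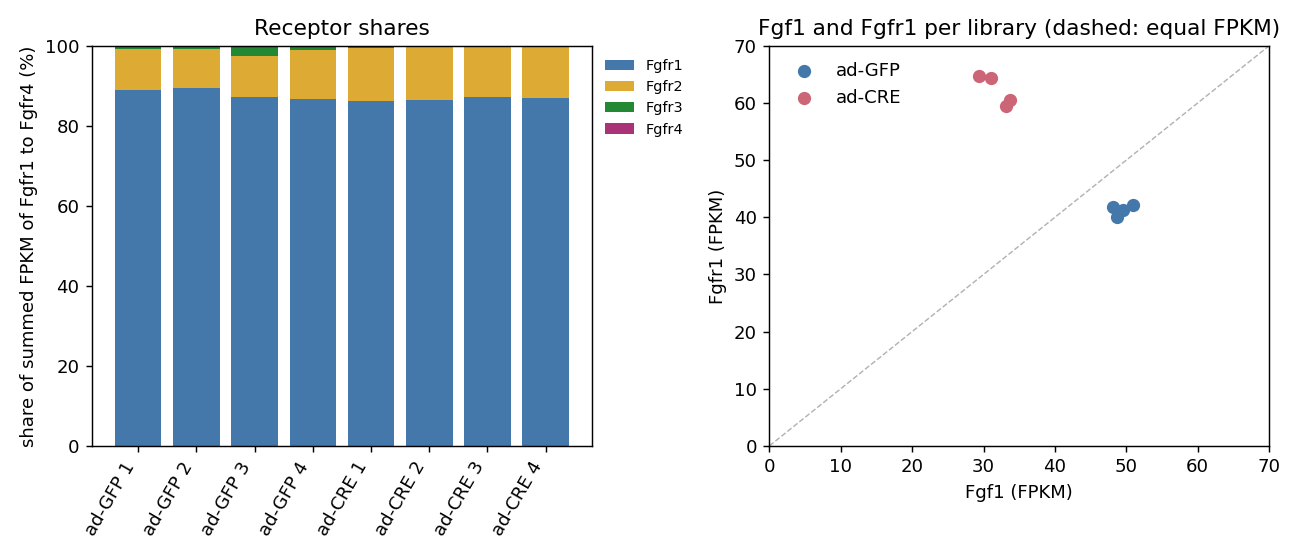
Left, the share of each kinase receptor in the summed FPKM of Fgfr1 to Fgfr4 in each library (stacked bars). Right, FPKM of Fgf1 against Fgfr1, 1 point per library: ad-GFP libraries lie below the line of equal FPKM and ad-CRE libraries above it.

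Fgfr1 took most of the kinase receptor transcripts in every library. On the FPKM scale, which allows levels of different genes to be compared, its share of the sum of Fgfr1 to Fgfr4 was 88.1% ± 1.33 in ad-GFP and 86.8% ± 0.409 in ad-CRE (SD, n = 4), and the libraries of the groups overlapped. The share of Fgfr2 was 9.87% to 12.2% in ad-GFP and 12.5% to 13.2% in ad-CRE, with no overlap, a mean difference of 2.22 percentage points. The share of Fgfr3 fell from a mean of 0.983% to 0.268%, with overlap between libraries. That difference of -0.715 points became -0.381 without ad-GFP replicate 3. These shares are descriptions without a test. The summed FPKM of the 4 kinase receptors was 45.9 to 47.6 in ad-GFP and 69.0 to 74.3 in ad-CRE, while that of the 5 ligands was 55.2 to 57.8 and 35.5 to 41.0. Fgf1 made up most of the ligand sum, with a mean FPKM of 49.3 in ad-GFP and 31.8 in ad-CRE. Fgf18 rose within that sum, from 1.84 to 3.38.

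Fgf1, a ligand that binds every FGF receptor (ENSMUSG00000036585, chromosome 18, minus strand), was the most abundant ligand of the set. It had 166, 161, 165 and 163 CPM in ad-GFP and 108, 110, 103 and 119 CPM in ad-CRE. The ad-GFP libraries lay within a narrow range and all ad-CRE libraries were lower. Its log2 fold change was -0.57 (SE 0.035, edgeR adjusted p = 4.07e-15), resting on 12119 and 8813 reads.

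Fgf7, the keratinocyte growth factor that mesenchymal cells make for epithelia (ENSMUSG00000027208, chromosome 2, 126034658 to 126091185, plus strand), had 7.62, 9.29, 8.47 and 8.88 CPM in ad-GFP and 3.17, 4.11, 3.93 and 3.69 CPM in ad-CRE. The lowest ad-GFP library was still well above the highest ad-CRE library. The log2 fold change was -1.20 (SE 0.12, edgeR adjusted p = 2.72e-10), the largest fall among the ligands of the set. Fgf18, a ligand of mesenchymal receptor splice forms known for its role in skeletal growth (ENSMUSG00000057967, chromosome 11, 33117430 to 33147400, minus strand), had 1.66, 1.22, 2.48 and 2.17 CPM in ad-GFP and 3.17, 3.43, 3.29 and 4.43 CPM in ad-CRE. All ad-CRE libraries were higher, though the ad-GFP libraries spread widely, on 137 reads in all against 284. Its log2 fold change was 0.93 (SE 0.19, edgeR adjusted p = 8.72e-05).

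Fgf2 and Fgf9 did not pass. Fgf2, the basic FGF that stimulates fibroblast growth (ENSMUSG00000037225, chromosome 3, 37348346 to 37410108, plus strand), had 4.02, 2.96, 4.27 and 3.54 CPM in ad-GFP and 3.80, 3.54, 3.38 and 4.55 CPM in ad-CRE. The groups overlapped, and the 95% interval of the log2 fold change was -0.27 to 0.35 (edgeR adjusted p = 0.823), with a sign that differed between settings. Fgf2 shares 640 exonic bases with Nudt6 on the opposite strand, and the sources used here do not state whether counting used strand. Nudt6 averaged 2.67 ± 0.923 CPM with ad-GFP against 3.27 ± 0.469 with ad-CRE (SD, n = 4) and did not pass either (log2 fold change 0.31, edgeR adjusted p = 0.157), but did without ad-GFP replicate 4 (0.47, edgeR adjusted p = 0.0421). Fgf9, which supports nephron progenitors in the developing kidney (ENSMUSG00000021974, chromosome 14, 58070547 to 58112720, plus strand), had 2.98, 3.32, 2.48 and 2.80 CPM in ad-GFP and 2.58, 2.39, 2.17 and 2.25 CPM in ad-CRE. The ad-CRE libraries were lower apart from replicate 1, which lay above ad-GFP replicate 3. The 95% interval was -0.65 to 0.04 (edgeR adjusted p = 0.106), and Fgf9 passed on the log2(FPKM + 1) scale only (-0.20, limma adjusted p = 0.0450).

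Ordered by mean FPKM, the set ran from Fgf1 (49.3 ± 1.17, SD, n = 4), Fgfr1 (41.3 ± 0.924), Fgfrl1 (16.8 ± 1.40), Fgfr2 (5.0 ± 0.537) and Fgf7 (3.41 ± 0.280) to Fgf18, Fgf9, Fgf2, Fgfr3 and Fgfr4 in ad-GFP. In ad-CRE the order was Fgfr1 (62.2 ± 2.66), Fgf1 (31.8 ± 1.98), Fgfrl1 (17.9 ± 1.5), Fgfr2 (9.25 ± 0.413) and Fgf18 (3.38 ± 0.478), followed by Fgf7, Fgf9, Fgf2, Fgfr3 and Fgfr4. Thus Fgf1 and Fgfr1 changed places, as did Fgf7 and Fgf18. Libraries of neighbours in this order overlapped for Fgf18 and Fgf9 and for Fgf2 and Fgfr3 in ad-GFP, and for Fgfr3 and Fgfr4 in ad-CRE. At the low end the levels were 0.458 ± 0.308 FPKM for Fgfr3 and 0.122 ± 0.0650 FPKM for Fgfr4 in ad-GFP, where single reads weigh heavily.

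The other FGF family genes listed as ligands were mostly under the filter on low counts. Of 17 such genes, 12 were under it. Of the 5 tested, 4 fell, 0 rose and 1 did not pass at an adjusted p of 0.05 (median log2 fold change -2.27). Over all genes tested 73.1% passed and 36.3% fell, and the list was not tested against these shares. Fgf10, the partner of Fgf7 in acting on epithelial Fgfr2, had 57, 34, 47 and 40 reads in ad-GFP and 4, 4, 5 and 7 reads in ad-CRE. No ad-CRE library came near the ad-GFP range, and the log2 fold change was -3.23 (SE 0.30, edgeR adjusted p = 6.46e-11). Fgf13, an intracellular member of the family that binds sodium channels rather than receptors, had 11.4, 10.9, 9.22 and 11.1 CPM in ad-GFP and 1.54, 1.82, 1.43 and 1.67 CPM in ad-CRE (log2 fold change -2.72, SE 0.13, edgeR adjusted p = 1.36e-17). Its relatives Fgf12 and Fgf11, also intracellular, had log2 fold changes of -2.27 and -0.64. Fgf10 and Fgf12 passed the filter through the ad-GFP group only, so their direction and the median are no independent support. On the log2(FPKM + 1) scale these 4 falls shrank to -0.58 (Fgf10), -1.54 (Fgf13), -0.41 (Fgf12) and -0.32 (Fgf11), each still past the threshold. Fgf21, an endocrine ligand, averaged 0.871 ± 0.305 CPM with ad-GFP against 1.22 ± 0.410 with ad-CRE (SD, n = 4), and its log2 fold change of 0.50 did not pass (edgeR adjusted p = 0.116). Without ad-GFP replicate 3 its log2 fold change was 0.76 and it passed (edgeR adjusted p = 0.0293).

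**Figure D4:**
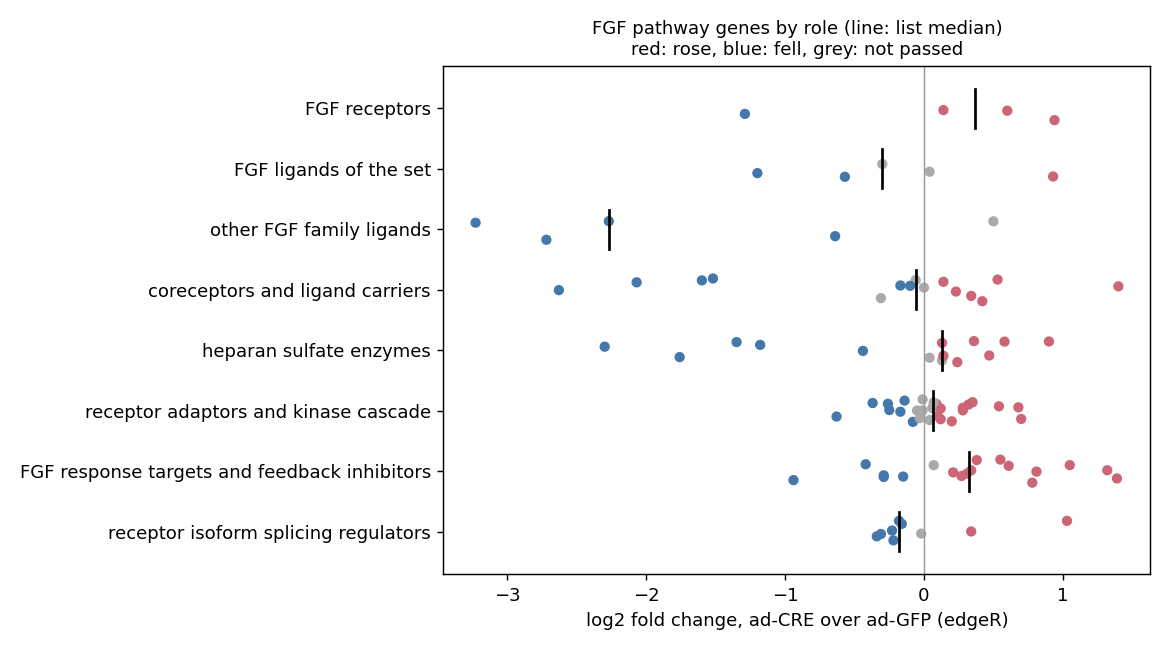
Log2 fold changes of tested FGF pathway genes by role (points: genes, black lines: list medians, red: rose, blue: fell, grey: did not pass). The list of other FGF family ligands has the lowest median at -2.27 and the receptors the highest at 0.37. Of the tested genes in that list, Fgf11, Fgf12 and Fgf13 are intracellular, and Fgf12 sets the median.

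Over the 100 other genes of the pathway lists, 87 were tested, of which 39 rose, 33 fell and 15 did not pass (median log2 fold change 0.06). Over all genes tested 73.1% passed, 36.8% rose and 36.3% fell, with a median of 0.00, and the shares of the role lists that follow are not tested against these. Coreceptors and ligand carriers moved in both directions, 6 up and 6 down of 15 tested (median -0.06). Kl, which rose, passed the filter on low counts through ad-CRE only, and Gpc3, which fell, through ad-GFP only. The filter favours these directions. Flrt2, a membrane protein with leucine-rich repeats whose family binds FGF receptors, fell most clearly, with 139, 140, 156 and 150 CPM in ad-GFP and 21.4, 23.9, 24.0 and 25.5 CPM in ad-CRE. The groups were far apart (log2 fold change -2.63, SE 0.048, edgeR adjusted p = 1.35e-28). Fgfbp1, a carrier that releases FGF ligands from the matrix, fell by 2.07 on the log2 scale, to 1.02 ± 0.146 CPM in ad-CRE (SD, n = 4). The syndecan genes Sdc4 and Sdc2, for heparan sulfate carriers, rose by 0.53 and 0.42, Sdc3 fell by 0.17, and Cd44, which is also a carrier, rose by 0.23.

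Of 14 genes for enzymes that make or trim heparan sulfate, the FGF cofactor, 7 rose, 5 fell and 2 did not pass (median 0.13). Hpse, among those that fell, passed the filter through ad-GFP only, which favours a fall. Ndst1, which starts sulfation of the chain, averaged 278 ± 8.67 CPM with ad-GFP and rose to 520 ± 3.65 (SD, n = 4, with a log2 fold change of 0.90 and an edgeR adjusted p = 1.03e-23). The chain initiation gene Extl3 rose by 0.58 and the polymerase gene Ext1 by 0.13. Hs6st2, which adds 6-O sulfate, fell from 25.1 ± 0.772 CPM to 5.10 ± 0.315 (SD, n = 4, with a log2 fold change of -2.30 and an edgeR adjusted p = 9.63e-22). The extracellular sulfatase genes, whose products remove such sulfate, changed in opposite directions, Sulf1 with -1.35 and Sulf2 with 0.47.

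Inside the cell, 12 of 26 genes for adaptors and kinases rose, 7 fell and 7 did not pass (median 0.07). Nras rose by 0.68 and the ubiquitin ligase gene Cbl by 0.54, while the MAP kinase kinase gene Map2k1 fell by 0.63 and Akt1 by 0.37. Ptpn11, the phosphatase that relays FGF receptor signals, rose by 0.09, a call lost on both FPKM scales (0.06 on each, limma adjusted p = 0.0653 and 0.0617). Crk had -0.08, a call lost in 4 of the settings (largest edgeR adjusted p 0.108, without ad-GFP replicate 4).

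Among 18 response targets and feedback inhibitors, 12 rose, 5 fell and 1 did not pass (median 0.33). Il17rd, also called Sef, an inhibitor of FGF receptor signalling at the membrane, had 49.0, 47.4, 46.7 and 47.0 CPM in ad-GFP and 126, 122, 127 and 125 CPM in ad-CRE. The libraries of each group were nearly level (log2 fold change 1.39, SE 0.036, edgeR adjusted p = 8.91e-25). Errfi1, a feedback inhibitor of the EGF receptor, rose by 1.32, Ccnd1 by 0.61 and Myc by 0.38, whereas the phosphatase gene Dusp4 fell by 0.94. Further families of the list were singled out after their values were seen. Of the Sprouty genes, Spry1 rose by 0.78, Spry2 by 1.05 and Spry4 by 0.34. Of the Sprouty-related genes, which also inhibit the cascade, Spred1 fell by 0.29 and Spred2 by 0.42, while Spred3 rose by 0.27. The ERK phosphatase gene Dusp6 rose by 0.21 and Dusp5 by 0.31. Among the ETS factor genes that FGF signals induce, Etv5 fell by 0.15 and Etv4 had 0.07 and did not pass (edgeR adjusted p = 0.194). Etv1 fell by 0.29 (edgeR adjusted p = 0.0476), a call lost in 9 of 15 alternative settings, among them DESeq2 (adjusted p = 0.0827), without ad-GFP replicate 1 (0.0687), 3 (0.12) or 4 (0.0741) and without ad-CRE replicate 2 (0.0662), 3 (0.121) or 4 (0.0814). Other growth factors that act through the same cascade induce these genes too, and phosphorylation was not measured.

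The genes whose profile over the 8 libraries was most like that of the leading receptor and ligand were listed by Pearson correlation of log2 CPM among 11178 genes, as a description. For Fgfr1 they were Ube2d1 (r = 0.9992), Micall1 (0.9989) and Rin1 (0.9987), with log2 fold changes of 1.08, 0.55 and 0.66. For Fgf1 they were Zfp958 (r = 0.9989), Ereg (0.9983) and Cmpk2 (0.9979), with -0.91, -2.12 and -2.83. The points of each correlation share their libraries and fall into the 2 groups, so these values mostly reflect the difference between groups.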

How the data were processed

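RNA-seq was deposited for 8 libraries, 4 ad-GFP and 4 ad-CRE. GRCm38 and mm10 are the builds in the submitters' processing notes. The sources used here do not give the aligner, counter, annotation or use of strand. Per the file headers, the authors' table gives a read count and an FPKM value for each gene and library, the authors' mean FPKM per group, their log2 fold change and their p-value and FDR. None of the authors' comparison values is used here. Columns were assigned to samples through the sample titles.

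Counts were tested in R 4.3.3 with edgeR 4.0.16 (filterByExpr with the groups, TMM factors, glmQLFit and glmQLFTest, group as the only term), with Benjamini-Hochberg adjustment over 13702 genes and a threshold of 0.05. CPM are scaled by TMM. The SE is the log2 fold change over the square root of F, and n is 4 per group. Deposited FPKM were used for levels between genes and for limma 3.58.1 on log2(FPKM + 0.1) and log2(FPKM + 1). Other alternatives were DESeq2 1.42.0, other scaling and filters, the replicate number as a term and each library left out. The edgeR test was first run on simulated counts. The members and lists were chosen with earlier results of these data known. Genes were named by rule: all members, every other FGF family gene tested, and the 4 smallest p-values and 3 highest means of each list. The rule also took Suv39h1 and Smarca4 and the 3 genes most correlated with Fgfr1 and with Fgf1. Names outside this rule are marked in the text as chosen after their values were seen. Exceptions are genes that overlap a member, were at 0 in every library or passed the filter through a single group. Coordinates are from GENCODE M21 and start-site sequences from RefSeq, both for GRCm38.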

Additional observations from a re-analysis of the deposited data

Results flagged for a closer look

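Dixon's test divides the gap between a library and the nearest of the others by the range of the group. In 172 groups of 4 libraries, over 86 genes, this ratio exceeded the 95% critical value in 9, where chance gives about 1 in 20. None of the 10 receptor and ligand genes of the set was among them. Fgf21 was at 1.33 CPM in ad-GFP replicate 3, against 0.683 to 0.765 CPM in the others. Ndst1 was at 514 CPM in ad-CRE replicate 3, against 521 to 522 CPM. Hs6st2 was at 4.63 CPM in ad-CRE replicate 2, against 5.23 to 5.30 CPM. Hnrnpa1 was at 537 CPM in ad-CRE replicate 4, against 485 to 494 CPM. Spry2 was at 18.5 CPM in ad-CRE replicate 1, against 21.4 to 21.8 CPM, and Spry4 at 21.5 CPM in ad-CRE replicate 2, against 24.3 to 24.7 CPM. Among the markers, Cldn4 was at 893 CPM in ad-CRE replicate 4 (958 to 965 CPM in the others), Emcn at 19.2 CPM in ad-CRE replicate 3 (20.8 to 20.9 CPM) and Cdh5 at 37.9 CPM in ad-GFP replicate 4 (33.2 to 33.8 CPM).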

How the results depend on the processing

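Over 16 alternatives, Fgfr1, Fgfr2, Fgf1, Fgf7 and Fgf18 passed in the same direction wherever they were tested, with log2 fold changes of 0.57 to 0.62, 0.77 to 0.99, -0.63 to -0.54, -1.26 to -0.83 and 0.64 to 1.10. With a filter of 5 CPM in 4 libraries, 2 members rose, since Fgf18 was no longer tested and Fgfrl1 did not pass. Fgf2, which passed nowhere, changed sign to -0.14 on log2(FPKM + 0.1), -0.07 on log2(FPKM + 1), -0.06 without ad-GFP replicate 2 and -0.05 without ad-CRE replicate 4 (range with 1 library left out -0.06 to 0.11), and the cause was not tested. Of 140 values of members under alternatives, 124 kept direction and call, as did 1191 of 1208 values of the other named genes. With the replicate number as a block, 4 members rose and 3 fell, as without it, and 5011 genes rose and 4952 fell, so the block changed no call of a member, while Etv1 no longer passed (edgeR adjusted p = 0.0628). Libraries with the same number did not deviate together (correlations of -0.03 to 0.052). Whether they share a culture or preparation is not stated, and these correlations cannot decide it. Scaling by total counts only moved the median of all genes by -0.028 on the log2 scale. Depth limits Fgfr3 (81 reads in ad-GFP and 36 in ad-CRE) and Fgfr4 (29 and 17 reads).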
